A study of Homo sapiens with 3 samples.

Results

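Expression of the genes that write, copy and remove DNA methylation was examined in H9 cells, an established line of human embryonic stem cells. The 10 genes were given by symbol, without a threshold on expression: DNMT1, DNMT3A, DNMT3B, DNMT3L, TET1, TET2, TET3, UHRF1, UHRF2 and TDG. All 10 were found by their Ensembl identifiers among the 58051 genes of the deposited counts. Every library came from wild-type H9 cells that received no treatment, grown without feeder cells in Essential 8 Flex medium on a vitronectin coating. Total RNA was sequenced after removal of ribosomal RNA in 3 replicates, all of this single condition, for a study of replication origins that used the levels to sort genes by expression. Nothing in the labels says whether the replicates came from separate cultures, so the spread given here may be technical. The depth of replicates 1, 2 and 3 was 10390984, 12024802 and 8655155 reads on genes, of which the 10 genes held 0.355%, 0.350% and 0.354%. Levels are given in TPM, a measure per length: the count of a gene was divided by the length of all its annotated exons, and the values of a library were then brought to a common sum. The label of the cells was checked against markers: 8 of 8 pluripotency genes were in the highest expression class, with means from 259 to 2576 TPM, and 16 markers of endoderm, mesoderm, neuroectoderm and fibroblasts had means from 0 to 25.6 TPM. None of these 16 was in the highest class. The medium class held 3 of 4 fibroblast markers, 1 of 4 endoderm markers and 1 of 4 neuroectoderm markers. The highest of the 16 markers were the collagen genes COL1A2, at 25.6 TPM, and COL1A1, at 14.6 TPM, and their part in the levels reported here was not tested. In RNA from a whole culture, fewer cells that express a gene and less RNA in each cell cannot be told apart.

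In mammals, a methyl group is placed on the cytosine of CpG dinucleotides. DNMT3A and DNMT3B place it on DNA that carried none, assisted by DNMT3L, a relative without catalytic activity. DNMT1 copies the pattern to the new strand after replication, at sites where UHRF1 has bound hemimethylated DNA. The TET enzymes oxidize the methyl group, and TDG, a DNA glycosylase, removes some of the oxidized bases so that base excision repair can restore plain cytosine. Spontaneous deamination of methylated cytosine to thymine is a known source of mutations at CpG sites.

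The members of each family resemble each other in protein and could be confused in sequencing only if long stretches of their transcripts were identical. The stretches below hold active center residues of the DNMT and TET enzymes. How conserved they are beside the rest of these genes was not measured. They were read 5′ to 3′ from the GENCODE release 44 canonical transcripts, on GRCh38. In the methyltransferases the capitals mark the codon of the catalytic cysteine. DNMT1 lies on the minus strand (chr19:10140096-10140158, exon 33), DNMT3A on the minus strand (chr2:25240653-25240715, exon 18) and DNMT3B on the plus strand (chr20:32800850-32800912, exon 18). These stretches were found by longer motifs that hold proline, cysteine and then glutamine (DNMT1) or asparagine (DNMT3A and DNMT3B). DNMT3L was searched with a shorter motif, proline and cysteine followed by asparagine or glutamine, which had no match in its coding sequence.
DNMT1: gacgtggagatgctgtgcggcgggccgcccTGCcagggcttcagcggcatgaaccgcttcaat
DNMT3A: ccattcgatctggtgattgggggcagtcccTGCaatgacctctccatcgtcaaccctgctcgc
DNMT3B: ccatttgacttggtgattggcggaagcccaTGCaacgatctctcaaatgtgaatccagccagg
Over these 63 bases, DNMT3A and DNMT3B differed at 18 positions, and DNMT1 differed from DNMT3A at 34 and from DNMT3B at 35.

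In the TET genes the capitals mark the codons of the histidine and aspartate that hold the iron of the active center. All lie on the plus strand, TET1 at chr10:68682905-68682973 (exon 10), TET2 at chr4:105269679-105269747 (exon 9) and TET3 at chr2:74093598-74093666 (exon 10).
TET1: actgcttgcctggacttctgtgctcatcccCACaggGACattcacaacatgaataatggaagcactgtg
TET2: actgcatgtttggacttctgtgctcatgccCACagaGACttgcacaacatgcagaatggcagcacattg
TET3: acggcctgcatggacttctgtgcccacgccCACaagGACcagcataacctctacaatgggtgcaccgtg
Over 69 bases, TET1 and TET2 differed at 12 positions, TET1 and TET3 at 18 and TET2 and TET3 at 19. The longest run of identical bases anywhere in the transcripts of DNMT3A and DNMT3B was 18, that of UHRF1 and UHRF2 was 14, and that of TET2 and TET3 was 20. The coding sequences of DNMT3A and DNMT3B were identical at 65.7% of 2384 aligned bases and those of UHRF1 and UHRF2 at 62.4% of 2264. No run shared within a family thus reached 50 bases, the length used here to call an exact copy.

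Among the de novo methyltransferases, DNMT3B was the most highly expressed of all 10 genes and DNMT3L was at the limit of detection. DNMT3B (ENSG00000088305, chromosome 20, 32762385 to 32809359, plus strand) had 21703, 24855 and 18199 reads in replicates 1, 2 and 3. These gave 1212.5, 1194.5 and 1192.5 TPM, with a mean of 1199.8 ± 11.01 TPM (SD, n = 3). Of 19629 protein-coding genes, 65 had a higher mean. DNMT3A (ENSG00000119772, chromosome 2, 25227855 to 25342590, minus strand) had 3796, 4407 and 3144 reads, which gave 105.8, 105.7 and 102.8 TPM and a mean of 104.8 ± 1.71 TPM (SD, n = 3). The lowest replicate of DNMT3B was thus far above the highest of DNMT3A. Within each replicate, DNMT3B was 11.5, 11.3 and 11.6 times DNMT3A, a mean log2 ratio of 3.52 ± 0.019 (SD, n = 3). With coding length as the gene length, the log2 ratio was 2.61, for DNMT3A has 13781 bases of exon and 2736 bases of coding sequence, beside 6876 and 2559 for DNMT3B.

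DNMT3L (ENSG00000142182, chromosome 21, 44246339 to 44262216, minus strand), the cofactor without catalytic activity, had 0, 1 and 3 reads. A count of 0 allows up to 3 reads, which is 0.620 TPM in replicate 1. With so few reads, whether the replicates differ cannot be told. Pooled over the 3 replicates, 4 reads correspond to 0.274 TPM, with an exact Poisson 95% interval from 0.0747 to 0.702 TPM. Reads per length on DNMT3B were 4377 times those on DNMT3L, with an exact binomial 95% interval from 1709 to 16065. Of the 4 reads, 3 were in replicate 3, and without that replicate the mean of DNMT3L was 0.0889 TPM, in place of 0.302 TPM, and the fold rested on 1 read, at 12587 with an interval from 2259 to 497190. These intervals cover counting error only. Part of DNMT3L may not have been measured, since how reads with several matches were counted is not stated. In its canonical transcript, 526 bases, or 38.0%, are repeated exactly, in pieces of at least 50 bases, at chromosome 21, 5011799 to 5017158. GENCODE lists a gene there, ENSG00000279493, with the biotype artifact, and it had 0 reads. If only the 858 bases without such a copy could receive reads, the 4 reads correspond to 0.594 TPM, the upper limit to 1.52 TPM and the fold to 2020, with an interval from 789 to 7414. In addition, 241 bases of DNMT3L exons lie over exons of DNMT3L-AS1 on the opposite strand, a gene that also had 0 reads.

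**Figure D1:**
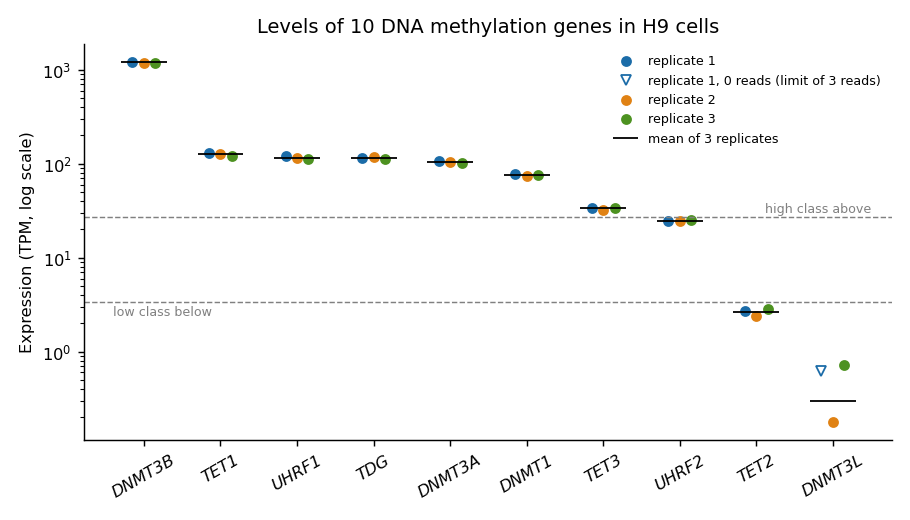
Expression in TPM, on a log axis, of the 10 genes in each of the 3 H9 replicates (points) with their mean (lines), and the class boundaries of protein-coding genes (dashed, 3.35 and 26.96 TPM). DNMT3B stands at 1199.8 TPM, 5 genes lie between 76.0 and 126 TPM, and DNMT3L is at the limit that 3 reads set (open triangle for the replicate with 0 reads).

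For maintenance of methylation, DNMT1 and UHRF1 were both well expressed and UHRF2 was lower. DNMT1 (ENSG00000130816, chromosome 19, 10133342 to 10231286, minus strand) had 3120, 3442 and 2601 reads, which gave 77.9, 74.0 and 76.2 TPM and a mean of 76.0 ± 1.99 TPM (SD, n = 3). UHRF1 (ENSG00000276043, chromosome 19, 4903080 to 4962154, plus strand) had 1615, 1780 and 1299 reads. Its levels were 120.6, 114.3 and 113.7 TPM, with a mean of 116.2 ± 3.79 TPM (SD, n = 3). UHRF2 (ENSG00000147854, chromosome 9, 6413151 to 6507054, plus strand), whose protein has the same domains but does not replace UHRF1 in maintenance, had 633, 732 and 549 reads. These gave 24.5, 24.4 and 24.9 TPM, with a mean of 24.6 ± 0.288 TPM (SD, n = 3). UHRF1 was 4.92, 4.69 and 4.56 times UHRF2 in the 3 replicates, and their replicates did not overlap. The log2 ratio of UHRF1 to UHRF2 was 2.24 ± 0.055 (SD, n = 3), and it was 1.17 per length of the canonical transcript and 1.08 per length of the longest transcript. UHRF1 remained above UHRF2 under all 3 of these lengths and with coding length, at 1.31.

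The level of DNMT1 against UHRF1 depended on the gene length. Per summed exon length, DNMT1 was below UHRF1 in every replicate, at 0.646, 0.647 and 0.670 times its level. The exons annotated for DNMT1 sum to 15379 bases over 52 transcripts, and its canonical transcript has 5274 bases. With the canonical transcript as length, DNMT1 was at 134 TPM and UHRF1 at 92.6 TPM, so the order turned. Which of the genes has more transcripts cannot be told from counts per gene alone. Over 83 bases, exons of DNMT1 lie on exons of S1PR2, a receptor gene on the same strand with 284, 258 and 215 reads, and reads there cannot be told apart.

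Of the TET dioxygenases, TET1 was highest, TET3 intermediate and TET2 close to the bottom of the 10 genes. TET1 (ENSG00000138336, chromosome 10, 68560337 to 68694487, plus strand) had 3276, 3704 and 2579 reads, or 130.9, 127.3 and 120.9 TPM, with a mean of 126.4 ± 5.09 TPM (SD, n = 3). TET3 (ENSG00000187605, chromosome 2, 73984910 to 74108176, plus strand) had 1148, 1269 and 983 reads, or 34.1, 32.4 and 34.2 TPM, with a mean of 33.6 ± 1.01 TPM (SD, n = 3). TET2 (ENSG00000168769, chromosome 4, 105145875 to 105279816, plus strand) had 115, 118 and 105 reads. It reached 2.68, 2.37 and 2.87 TPM, with a mean of 2.64 ± 0.255 TPM (SD, n = 3), and it was the only member besides DNMT3L below the median of protein-coding genes, 7.10 TPM. No replicate of a TET gene overlapped those of another. TET1 was 48.8, 53.8 and 42.1 times TET2 and 3.84, 3.93 and 3.53 times TET3. The log2 ratios were 5.58 ± 0.18 for TET1 to TET2, 1.91 ± 0.081 for TET1 to TET3 and 3.67 ± 0.10 for TET3 to TET2 (SD, n = 3). TET1 was above TET3 and TET3 above TET2 under all 4 lengths, with log2 ratios of at least 1.23 and 2.99. TET1P1, a processed pseudogene of TET1 on chromosome 13, had 16, 12 and 9 reads.

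TDG (ENSG00000139372, chromosome 12, 103965822 to 103988874, plus strand), the glycosylase for oxidized bases, had 1463, 1748 and 1210 reads. Its levels of 115.0, 118.2 and 111.6 TPM gave a mean of 115.0 ± 3.32 TPM (SD, n = 3), close to that of TET1. TDG was 0.879, 0.929 and 0.923 times TET1 per summed exon length, and this order turned under each of the 3 other lengths, where TDG was higher. Over 168 bases, exons of TDG lie on exons of the lncRNA gene ENSG00000288744 on the same strand, which is not among the genes of the deposited counts. The processed pseudogene TDGP1 had 1, 2 and 1 reads, and UHRF2P1, a processed pseudogene of UHRF2, had 1, 1 and 0. Adding the reads of pseudogenes to their parent genes moved none of the 8 log2 ratios computed by more than its SD.

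Expressed as shares of each family's summed TPM, DNMT3B made up 86.9 ± 0.041% of the DNMT genes (SD, n = 3), DNMT3A 7.59 ± 0.099%, DNMT1 5.51 ± 0.108% and DNMT3L 0.0220 ± 0.0276%. As a share of read counts, which favors long genes, DNMT3B made up 75.9 ± 0.094% and DNMT1 10.8 ± 0.207%. The order of DNMT3A and DNMT1 turned with the longest transcript, at 114 against 123 TPM, and with the canonical transcript, at 92.5 against 134 TPM. TET1 made up 77.7 ± 1.06% of the TET genes, TET3 20.7 ± 0.886% and TET2 1.63 ± 0.180%. UHRF1 made up 82.5 ± 0.549% of the TPM and 71.0 ± 0.784% of the read counts of the UHRF genes, and UHRF2 17.5 ± 0.549% and 29.0 ± 0.784%. With the longest transcript as length, UHRF1 was at 104 and UHRF2 at 49.3 TPM. Each family was thus led by a single gene in every replicate, and DNMT3B alone had 66.7 ± 0.261% of the TPM of the 10 genes.

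**Figure D2:**
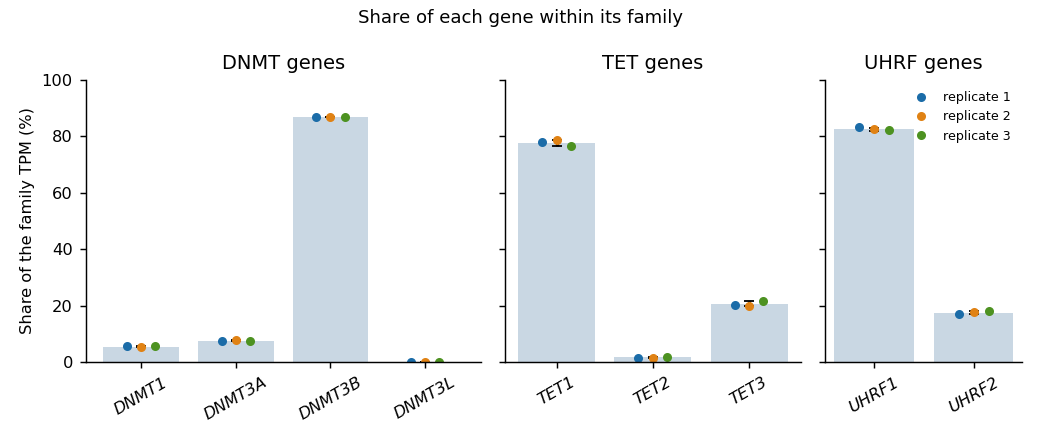
Share of each gene, in percent, of the summed TPM of the DNMT, TET and UHRF genes (bars, mean of 3 replicates; error bars, SD; points, replicates). DNMT3B holds 86.9% of the DNMT genes, TET1 77.7% of the TET genes and UHRF1 82.5% of the UHRF genes.

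The study called genes below 0.01 TPM nonexpressed and divided the others into low, medium and high classes of equal size. Applied to these values, 7 of the 10 genes were in the high class, above 26.96 TPM, which held 28.8% of all protein-coding genes. UHRF2, at 24.6 TPM, was in the medium class, and TET2 and DNMT3L were in the low class, below 3.35 TPM. The median of the 10 genes was 90.4 TPM, beside 7.10 TPM for all protein-coding genes. With each of the other lengths the count was again 7, but UHRF2 took the place of TET3.

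Ordered by mean TPM, the genes ran from DNMT3B through TET1, UHRF1, TDG, DNMT3A, DNMT1, TET3, UHRF2 and TET2 to DNMT3L. Of the 9 neighboring pairs in this order, 8 were apart, in the sense that every replicate of the higher gene was above every replicate of the lower. UHRF1 and TDG were not, with 113.7 TPM in the lowest replicate of UHRF1 and 118.2 TPM in the highest of TDG. TET1 and UHRF1 were apart by little, at 120.9 against 120.6 TPM. An exact permutation test of 3 values against 3 cannot give a two-sided p below 0.1, so none was made for these pairs. The genes from TET1 to DNMT1 lay between 76.0 and 126 TPM, and most changes of order with another gene length were among them. Of the 45 pairs of the 10 genes, 9 changed order with the longest or the canonical transcript and 8 with coding length, in each case including TET3 and UHRF2. The top of the order (DNMT3B) and its end (TET2, then DNMT3L) were the same under all 4 lengths.

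**Figure D3:**
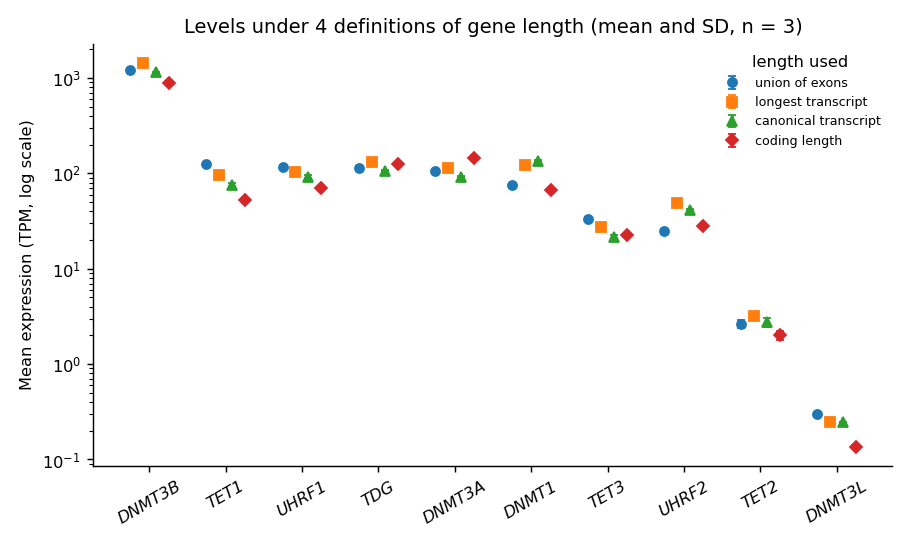
Mean TPM of the 10 genes, on a log axis, with gene length taken as the union of exons, the longest transcript, the canonical transcript or the coding sequence (error bars, SD of 3 replicates, smaller than most symbols and not drawn for DNMT3L, whose SD exceeds its mean). DNMT1 ranges from 66.2 to 134 TPM and TET1 from 52.5 to 126 TPM, and DNMT3B is highest throughout.

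The replicates were compared gene by gene by a chi-square test of the counts against the shares expected from the TMM library sizes of edgeR. The question was whether the spread of each gene exceeded counting error, and the test compares libraries with each other, not conditions. With Benjamini-Hochberg adjustment over 18878 genes, 11.6% of genes were called at an adjusted p below 0.05, and of the 9 members with enough reads 0 were called by this chi-square test. At an unadjusted p below 0.05 there was 1, TET1. DNMT3L was not tested, since fewer than 5 reads were expected in each library. Between replicates, the coefficient of variation of TPM was from 0.918% for DNMT3B to 4.02% for TET1 among the 7 members of the high class, whose median over all genes of that class was 5.03%. It was 1.17% for UHRF2, 9.66% for TET2 and 126% for DNMT3L, which rests on 4 reads.

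TET1 lay at the threshold, with a chi-square adjusted p of 0.0501. Its log2 deviation from the expected count was 0.047 in replicate 1, 0.012 in replicate 2 and -0.073 in replicate 3. With library sizes from DESeq2 the chi-square adjusted p was 0.0236, and without replicate 2 it was 0.0112. Corrected for the GC content of exons, which was 42.1% for TET1, it was 0.713, and without replicate 3 it was 0.799. With the same GC correction the chi-square adjusted p also rose for TDG and fell for the other members tested. That of DNMT3B went from 0.383 to 0.0869, the lowest of the members. In replicate 3, TDG (39.8% GC) was at -0.052 and UHRF2 (39.0%) at 0.015, with standard errors from counting alone of 0.041 and 0.062. UHRF1 (55.8%) was at -0.036 there, DNMT3A (54.1%) at -0.035 and DNMT3B (53.7%) at -0.014, with standard errors of 0.040, 0.026 and 0.011. Replicate 3 was the lowest for each of these but UHRF2. DNMT1, TET2, TET3 and UHRF2 had their lowest value in replicate 2. The cause of these deviations, that of TET1 included, was not tested.

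**Figure D4:**
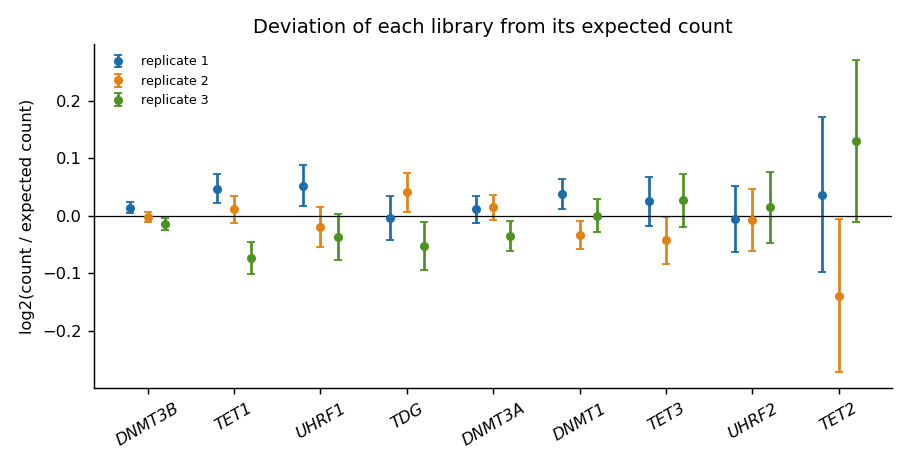
Log2 ratio of the observed to the expected count in each replicate for the 9 genes tested (points) with the standard error from counting alone (bars). DNMT3B deviates by 0.015 or less in every replicate, TET1 is at -0.073 in replicate 3, and TET2, with 105 to 118 reads, has the widest bars.

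Genes that work with these enzymes were taken from 7 lists of 70 genes in all, of which 36 were in the high class, 25 in the medium, 8 in the low class and 1 was nonexpressed. The high class held 28.8% of all protein-coding genes, the share beside which the count of each list stands. Among 9 partners of maintenance, 6 were high and 3 medium, with a median of 114 TPM. PCNA, the sliding clamp to which DNMT1 binds at the replication fork, had 802 ± 36.4 TPM (SD, n = 3). The remodeler HELLS had 128 ± 9.62 TPM, CDCA7L, a relative of its activator CDCA7, 216 ± 4.58 TPM, and the deubiquitinase USP7, which binds DNMT1 and UHRF1, 176 ± 8.21 TPM. The lowest were PCLAF, a PCNA-associated factor, at 14.2 ± 0.711 TPM, and DPPA3, a protein that removes UHRF1 from chromatin, at 16.1 ± 2.38 TPM.

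Among 11 genes whose products guide or restrain de novo methylation, 9 were in the high class and the median was 58.1 TPM. TRIM28, a corepressor of zinc finger proteins, had 944 ± 37.9 TPM (SD, n = 3). QSER1, which protects DNA from de novo methylation together with TET1, had 151 ± 5.85 TPM, the H3K9 methyltransferase gene EHMT2 110 ± 6.28 TPM and the H3K36 methyltransferase gene NSD1 92.0 ± 6.37 TPM. Lowest were ZNF445, at 18.0 ± 0.635 TPM, and ZFP57, which had 0, 4 and 8 reads. Both encode zinc finger proteins that keep methylation at imprinted loci.

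The list of methyl-CpG binding proteins and their relatives had 3 of 10 genes in the high class, beside 28.8% of all protein-coding genes, and a median of 17.5 TPM. It holds the whole MBD family, of which MBD3, MBD5 and MBD6 are not selective for methylated CpG. ZBTB33 (Kaiso) had 50.1 ± 4.15 TPM, MBD4, a glycosylase for deaminated methylcytosine, 45.0 ± 5.998 TPM, MBD1 29.3 ± 1.58 TPM and MBD3 26.3 ± 5.27 TPM (SD, n = 3). ZBTB38 had 5.996 ± 0.372 TPM and MBD5 3.70 ± 0.101 TPM.

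Among 11 genes that supply or bind the TET enzymes, 7 were high, and the median was 77.2 TPM. IDH1, which makes the 2-oxoglutarate that TET enzymes consume, had 490 ± 27.5 TPM (SD, n = 3). PRDM14, a regulator of pluripotency, had 330 ± 27.0 TPM and OGDH, which consumes 2-oxoglutarate, 128 ± 2.74 TPM. CXXC5 and CXXC4 encode CXXC zinc finger proteins that bind TET2. CXXC5 had 103 ± 7.52 TPM and CXXC4 0.937 ± 0.215 TPM, the lowest of the list. D2HGDH, a dehydrogenase gene for 2-hydroxyglutarate, was next lowest, at 5.45 ± 0.473 TPM.

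Among 11 genes of the base excision steps that follow, 7 were high and 4 medium, with a median of 50.9 TPM. The endonuclease gene APEX1 had 757 ± 23.1 TPM, PARP1 165 ± 6.28 TPM, the uracil glycosylase gene UNG 131 ± 6.99 TPM and the ligase gene LIG3 57.7 ± 2.86 TPM (SD, n = 3). The lowest on this list were the glycosylase genes SMUG1, at 15.4 ± 1.36 TPM, and NEIL1, at 6.07 ± 1.27 TPM, both in the medium class. The lists were not tested against each other.

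**Figure D5:**
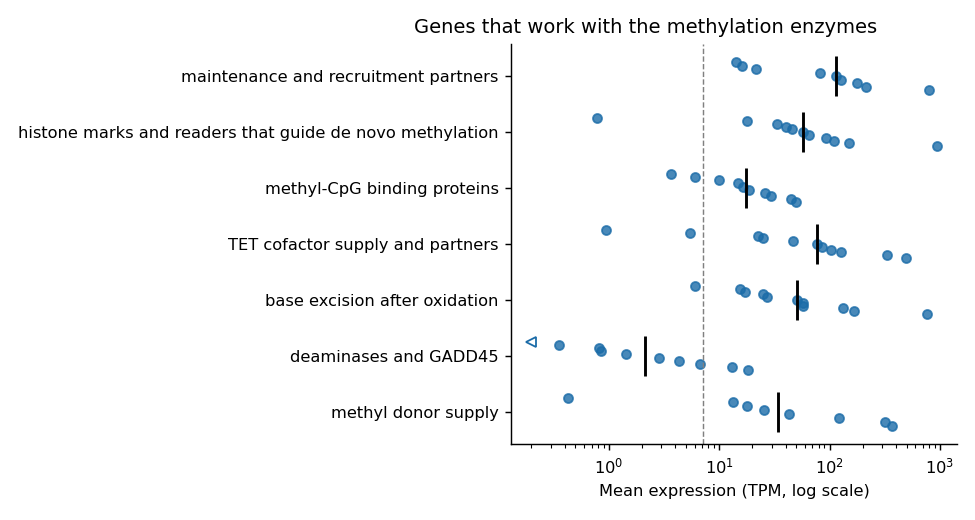
Mean TPM over 3 replicates, on a log axis, of the 70 genes on 7 lists (points), the median of each list (vertical bars) and the median of all protein-coding genes (dashed, 7.10 TPM). An open triangle at the left edge marks the gene with 0 reads, APOBEC1, and 6 of the 7 list medians lie above the dashed line.

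Promoter sequence was examined as a feature that the levels did not use. RefSeq windows on GRCh38.p14, of 250 bases before to 50 bases after each transcription start, were found for 9 of the 10 genes, 20 windows in all, and none for DNMT3L. Over all 35116 windows of that table the median number of CpG was 14. At the start of the canonical transcript, TET1 had 10 CpG, TDG 22, UHRF2 26, DNMT1 30, TET2 35, UHRF1 36, TET3 45 and DNMT3A 46. Of these 8 windows, 7 were thus above the median and TET1 was below it. The only window of DNMT3B, with 3 CpG, is at a start 17467 bases inside the gene and says nothing about its canonical start. High CpG number and high level did not always go together: at these starts TET2, at 2.64 TPM, had more CpG than TET1, at 126 TPM. Another TET2 window, at a start 1001 bases from the canonical one, had 13 CpG, and the other TET1 windows had 6 and 11. Which start these cells use was not examined. The letters TTTCCCGC, a form of the E2F motif, were searched on both strands and were present in 1.63% of all windows and, among the members, in that of UHRF1 at its canonical start. TTTGGCGC was in 0.65% of all windows and in no window of a member. CCAAT was in 34.6% of all windows and, at the canonical start, in those of UHRF1 and TDG.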

How the data were processed

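RNA was isolated from 3 replicates of H9 cells, depleted of ribosomal RNA and made into libraries by the authors. Per the submitters' processing notes and the methods of the study, reads were trimmed with Trim Galore (0.4.4) and aligned to GRCh38 with TopHat2 (2.1.1). The authors deposited counts, whole numbers of reads per Ensembl gene without normalization. How reads were assigned to genes (tool, annotation, strand) is not stated in what was read here. The cufflinks values of the study were not used.

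Of 58051 identifiers, 98.1% had an entry in GENCODE release 44 (GRCh38). Counts were joined to it and converted to TPM over the union of exons. Classes followed the rule of the study, with a threshold of 0.01 TPM and 3 quantiles of protein-coding genes. Ratios were taken within a replicate. Counts of the replicates were compared by chi-square (2 degrees of freedom) with TMM library sizes from edgeR (4.0.16), at least 5 expected reads per library and Benjamini-Hochberg adjustment over all genes tested. The chi-square step was tested on simulated data. Size factors came from DESeq2 (1.42.0). Exact matches of 50 bases or more were found with blastn (2.17.0). Other software was scipy 1.17.1, pandas 2.3.3, numpy 2.4.6 and matplotlib 3.10.9 under Python 3.11.15, and R 4.3.3.

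The members, the lists and the tests were chosen with earlier results of these data known. The text names the 10 members, up to the 4 highest and the 2 lowest genes of each list by mean TPM, and genes that copy or overlap a member. Values of 2 list genes are not reported here. COL1A1 and COL1A2 are named as the highest of the lineage markers and were chosen after their values were seen. The correction for GC content, the exact copy of DNMT3L and other alternatives are covered in the closing section. With 1 condition there was no comparison between groups. Similarity of profile between genes was not used, because 3 replicates of 1 condition give no profile.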

Additional observations from a re-analysis of the deposited data

How the results depend on the processing

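Each log2 ratio is given in the order longest transcript, canonical transcript and coding length. DNMT3B to DNMT3A was 3.64, 3.63 and 2.61, UHRF1 to UHRF2 1.08, 1.17 and 1.31, TET1 to TET2 4.89, 4.80 and 4.71, TET1 to TET3 1.81, 1.81 and 1.23, TET3 to TET2 3.08, 2.99 and 3.48, and DNMT1 to DNMT3B -3.53, -3.10 and -3.76, from -3.98 with the union of exons. DNMT1 to UHRF1, -0.61 with the union of exons, turned to 0.24 and 0.53 and was -0.074 with coding length. TDG to TET1, -0.14 with the union of exons, turned to 0.48, 0.48 and 1.27. Between these settings the counts were the same and only the gene lengths differed. A pseudocount of 1 TPM lowered TET1 to TET2 to 5.13 and TET3 to TET2 to 3.25. The cause was not tested for the value of 3.55 that DNMT3B to DNMT3A had with counts thinned to 10%. Over fits that each left out 1 replicate, values were 3.51 to 3.53 for DNMT3B to DNMT3A, -0.63 to -0.60 for DNMT1 to UHRF1, 2.21 to 2.26 for UHRF1 to UHRF2, 5.50 to 5.68 for TET1 to TET2, 1.88 to 1.96 for TET1 to TET3, 3.62 to 3.72 for TET3 to TET2, -3.99 to -3.96 for DNMT1 to DNMT3B and -0.15 to -0.11 for TDG to TET1.

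The number of neighbors apart was 8 or 9 under every alternative run for it. The number of members in the high class was 7, except 6 with a threshold of 1 TPM, where TET3 became medium and DNMT3L nonexpressed, and 8 with all genes classified, where UHRF2 became high and TET2 medium. The share of 28.8% does not apply to the counts of 6 and 8, and the shares of all genes under those settings are not given. The chi-square test called 0 members, and 1, TET1, with DESeq2 size factors, with at least 50 expected reads (adjusted p of 0.0335) or without replicate 2, a range of 0 to 1 when each replicate was left out. Of all genes, 11.8% were called with DESeq2 size factors and 10.2% without replicate 2. With total counts as library sizes, TET1 had an adjusted p of 0.343. The share of all genes called fell from 11.6% to 1.12% without replicate 3 and to 6.33% with the correction for GC content, and rose to 19.6% with at least 50 expected reads. Mean TPM moved by more than its SD in 9 members with the longest transcript (6 higher, 3 lower), 8 with the canonical transcript (2 higher, 6 lower), 9 with coding length (3 higher, 6 lower), 8 with mitochondrial genes left out (all higher) and 2 with the counts thinned to 10% (both lower), and in none with TMM or DESeq2 rescaling or the median. The length of DNMT3L without copied bases, which gave a mean of 0.653 TPM, and the folds of DNMT3B over DNMT3L with that length and without replicate 3 were chosen after seeing the data. Leaving out each replicate in turn, DNMT3L had from 0.0889 to 0.452 TPM. Depth limits DNMT3L and TET2. No paired analysis was possible because all 3 libraries belong to 1 condition, so no groups share replicate numbers.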

Other observations

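Deaminases and GADD45 genes, which have been proposed to take part in demethylation through repair, were the lowest of the 7 lists. None of 10 was in the high class, beside 28.8% of all protein-coding genes. Of the 10, 4 were medium, 5 low and 1 nonexpressed, with a median of 2.14 TPM. The highest level was that of APOBEC3C, 18.2 ± 0.709 TPM (SD, n = 3), and next came GADD45A at 13.1 ± 1.04 TPM, GADD45B at 6.71 ± 1.37 TPM and APOBEC3B at 4.35 ± 0.971 TPM. No read was counted on APOBEC1, where a count of 0 allows up to 3 reads in each library. Sequence shared among the APOBEC3 genes was not examined.

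On a list of 8 genes of methyl donor supply and their relatives, 4 were in the high class, beside 28.8% of all protein-coding genes. MAT2A, the synthetase gene of most tissues, had 366 ± 19.4 TPM (SD, n = 3), and AHCY, which hydrolyzes the product of methylation, had 321 ± 6.94 TPM. AHCYL1, a relative of AHCY without its hydrolase activity, had 123 ± 5.08 TPM and MAT2B, the regulatory subunit, 42.7 ± 2.73 TPM. MAT1A, the synthetase gene of adult liver, had 3, 4 and 5 reads.

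Among relatives and copies of the 10 genes, TRDMT1, a methyltransferase of transfer RNA that belongs to the DNMT family by sequence, had 6.90 ± 0.384 TPM (SD, n = 3). DNMT3AP1 had 0 reads, and 3 symbols of the list had no match in the annotation. The lncRNA gene ENSG00000235499, all of whose exon length lies within exons of TET3 on the same strand, had 43, 49 and 50 reads, beside 1148, 1269 and 983 on TET3.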
